A study of Mus musculus with 12 samples.

Results

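SR proteins and hnRNPs are the RNA-binding proteins that steer splice site choice, and their transcripts were followed in the hearts of mice that express expanded CUG repeat RNA. Members were taken by gene symbol: the serine/arginine-rich factors Srsf, the serine/arginine repetitive matrix genes Srrm, the splicing coactivators Tra2a and Tra2b, and every symbol that starts with Hnrnp. This gave 38 of the 51826 genes in the count table, of which 17 were SR or SR-like genes (11 Srsf, 4 Srrm and 2 Tra2) and 21 were hnRNP genes, 1 of them the processed pseudogene Hnrnpa1l2-ps. None of the 38 was at 0 counts in all libraries.

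RNA-Seq was done on atria and ventricles of the same 6 female FVB mice, which gave 12 libraries in 4 groups of 3. CUG960 +dox mice (V119, V120 and V123) were homozygous for TREDT960I and hemizygous for MHCrtTA. MHCrtTA +dox controls (V327, V333 and V334) were hemizygous for MHCrtTA alone, so both genotypes carried the transactivator and both received doxycycline chow (2 g/kg) from postnatal day 1 until tissue was taken at 10 weeks. The TREDT960I transgene places 960 interrupted CUG repeats in human DMPK exons behind a tetracycline-responsive minimal CMV promoter. Its transactivator is driven by the αMHC promoter, so induction is limited to cardiomyocytes while each library was made from whole chamber tissue, and the transgene itself was not analysed here. Chamber labels held in every library: Nppa, the atrial natriuretic peptide gene, was at 11400 to 16600 CPM (counts scaled to a common library total) in atria and 48.6 to 224 CPM in ventricles, and Myl2, the ventricular myosin light chain gene, was at 8.82 to 33.5 CPM in atria and 8500 to 10500 CPM in ventricles. Among the control atria, V334 stood apart in leukocyte markers (summed level 529 CPM against 218 and 256 CPM, with Lyz2 the most abundant gene at 395 CPM), and calls in control atria or between control chambers that were lost without this mouse are named beside them.

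SR proteins bind exonic enhancers through RNA recognition motifs, and their arginine/serine-rich domain, phosphorylated by SRPK and CLK kinases, recruits spliceosome components to nearby splice sites. HnRNPs coat nascent transcripts and often, though not always, act against SR proteins by silencing exons. In myotonic dystrophy type 1, expanded CUG repeat RNA sequesters MBNL proteins and raises CELF1 protein, and hnRNP H and other hnRNPs have been studied as further regulators of the affected exons.

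Libraries held 116127966 to 160676189 estimated counts, so a gene with 3 counts was at 0.0172 to 0.0285 CPM. CPM were scaled with TMM factors, which correct library totals for composition, over all 12 libraries. Members together took 0.387% to 0.409% of counts in atria and 0.292% to 0.322% in ventricles. After scaling, the summed SR level was 899 to 987 CPM in atria and 814 to 859 CPM in ventricles, and the summed hnRNP level was 2410 to 2560 CPM and 2470 to 2780 CPM. Mitochondrially encoded genes took 10.9% to 12.2% of counts in atria and 15.3% to 20.5% in ventricles, and the TMM factors followed this split (1.117 to 1.187 and 0.815 to 0.907). Within ventricles the mitochondrial share was 20.5%, 19.6% and 20.5% in controls and 18.4%, 15.3% and 17.3% in CUG960 mice, with no overlap.

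Levels were compared between genes as CPM per kb of annotated exon (the union of all exons of a gene), and hnRNPs held the first 8 places. Hnrnpa2b1, which codes for an hnRNP that binds exonic silencers and helps sort RNA, was highest on this mean at 75.9 CPM per kb. Its library values ran from 368 to 425 CPM in atria and from 538 to 660 CPM in ventricles. Hnrnpa1, which codes for a classical antagonist of SRSF1, followed at 63.5 CPM per kb. In atria of both genotypes Hnrnpa1 was above Hnrnpa2b1 per kb. Over 3153 and 6584 exon bases, their levels were 239 and 411 CPM in CUG960 atria. In control atria they were 187 and 389 CPM, which is near even per kb. Hnrnpf, whose protein binds G-rich tracts, was at 49.5 CPM per kb, and Hnrnpab, also known as CBF-A, was at 49.3 CPM per kb. Hnrnpa3 was at 39.5 CPM per kb and Hnrnpk, a protein of poly(C) tracts, at 34.1 CPM per kb.

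On the mean of the 4 groups, the order below Hnrnpa2b1 also depended on the length used. Per kb of the longest annotated transcript, Hnrnpk moved from rank 6 to rank 2, and Hnrnpa1 was at 64.2 CPM per kb against 74.3 for Hnrnpk. Among SR genes Srsf2, which codes for SC35, was highest at 22.2 CPM per kb of union exons and Srsf5 was next at 20.4 CPM per kb. By longest transcript Srsf3 (26.7) followed Srsf2 (34.6). In atria of both genotypes Srsf5 was above Srsf2 per kb of union exons. Over 3988 and 2958 bases, their levels were 97.6 and 62.2 CPM in CUG960 atria. In control atria they were 88.7 and 65.2 CPM, which is near even per kb. On the same mean Srrm4, a neural exon regulator, was lowest of the 35 members with a mean of at least 1 CPM, at 2.08 CPM per kb (by longest transcript Hnrnpr was lowest). In ventricles of both genotypes Srrm4 was above Hnrnpr and Hnrnpll per kb of union exons. Over 8678, 22199 and 11677 bases, these genes were at 28.3, 49.8 and 25.4 CPM in control ventricles. In CUG960 ventricles they were at 30.1, 50.3 and 24.4 CPM. Srsf12, Srrm3 and Hnrnpa1l2-ps were close to the floor: Srsf12 had 0 to 15 counts per library, Srrm3 had 0 to 26, and Hnrnpa1l2-ps had 1 count in a single control atrium.

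**Figure D1:**
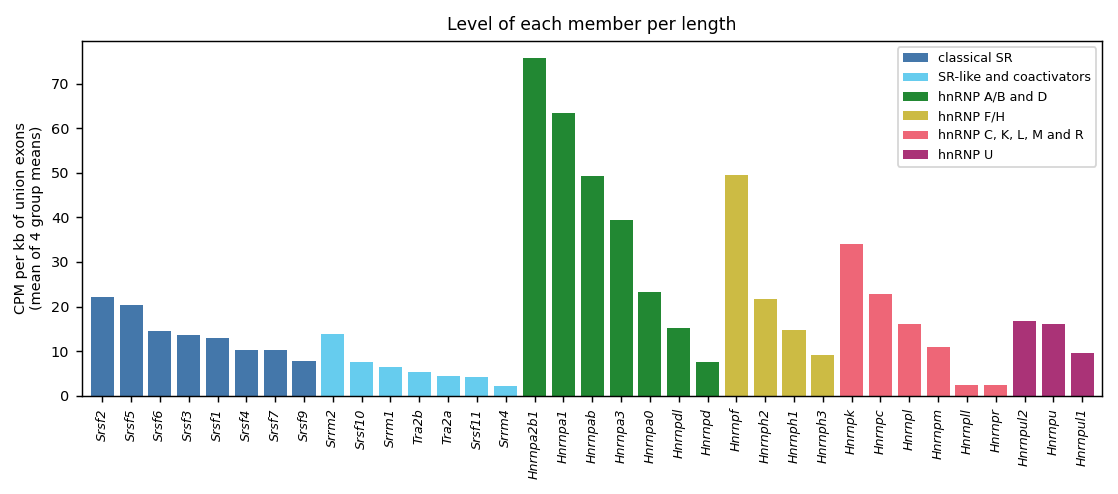
Bars show the level of each of the 35 members with a mean of at least 1 CPM, in CPM per kb of union exons (y axis, linear, mean of the 4 group means), ordered by role and then by level. Hnrnpa2b1 and Hnrnpa1 are highest at 75.9 and 63.5 CPM per kb, and Srrm4 is lowest at 2.08.

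Some hnRNP genes have processed copies elsewhere in the genome, and these bear on how reads can be counted. Gm10052 on chromosome 9 (GRCm38, 123689233 to 123690192, minus strand) repeats all 960 coding bases of an Hnrnpa1 transcript with 0 mismatches, so no read from this stretch can be told apart by sequence. The first 60 coding bases are printed for both genes to show this, with no base in capitals because none differs:
Hnrnpa1: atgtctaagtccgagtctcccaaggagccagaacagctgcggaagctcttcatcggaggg
Gm10052: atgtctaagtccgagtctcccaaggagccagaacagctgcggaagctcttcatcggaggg
The table assigned 1722 counts to Gm10052 and 333178 to Hnrnpa1 over the 12 libraries. Hnrnpk and its copy Gm7964 on chromosome 7 (83755904 to 83757281, plus strand) can be separated at few positions. They differ at 11 of 1378 aligned coding positions, a gap included, and the stretch from coding base 539 to 598 holds 2 of them, printed in capitals:
Hnrnpk: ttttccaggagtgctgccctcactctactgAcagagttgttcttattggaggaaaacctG
Gm7964: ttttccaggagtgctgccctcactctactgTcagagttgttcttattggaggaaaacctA
Gm7964 held 10885 counts against 364177 for Hnrnpk, at most 3.35% of the pair's sum in any library. Copies of Hnrnpc held at most 4.36%, and those of the other 10 members with a listed pseudogene copy at most 0.828%.

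The difference between CUG960 +dox and control atria was asked first. Controls lacked the TREDT960I transgene and, by the paper's methods, came from a separate cross. Repeat RNA, other parts of the transgene and breeding therefore cannot be told apart here. Of 37 members tested, 2 passed an adjusted p of 0.05 (edgeR quasi-likelihood test, Benjamini-Hochberg over all genes) and both are hnRNPs: Hnrnpa1 rose and Hnrnph1 fell in CUG960 +dox atria. This was 5.41% of members, against 14.6% of all 17650 genes tested (7.95% higher and 6.62% lower in CUG960). Neither reached a 1.5-fold change, which 5.49% of all genes did together with the adjusted p. The median log2 fold change was -0.05 over members, with 16 above and 21 below 0, and 7 members had an unadjusted p under 0.05, against 30.2% of all genes.

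Hnrnpa1 lies on chromosome 15 (GRCm38, 103240432 to 103246692, plus strand). Its level was 197, 180 and 183 CPM in atria of control mice V327, V333 and V334, and 250, 247 and 220 CPM in atria of CUG960 mice V119, V120 and V123. Every CUG960 atrium was above every control atrium. The means were 187 ± 9.02 and 239 ± 16.4 CPM (SD, n = 3 each), a log2 fold change of 0.36 ± 0.07 (SE), or 1.28-fold (95% interval 1.14 to 1.43), with an edgeR adjusted p of 0.014. The call was lost without V333, V334 or V120 (adjusted p 0.052 to 0.064) although all 6 fits that left out a mouse gave log2 fold changes of 0.32 to 0.41. Adding the counts of its pseudogene copies left Hnrnpa1 called (adjusted p = 0.013).

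Hnrnph1 codes for hnRNP H, which binds G-rich tracts and can act as enhancer or silencer of an exon depending on position. It lies on chromosome 11 (50376990 to 50386528, plus strand). Its level was 94.4, 98.1 and 95.5 CPM in control atria and 75.3, 74.8 and 66.2 CPM in CUG960 atria, with no overlap. Means were 96.0 ± 1.94 and 72.1 ± 5.09 CPM (SD, n = 3 each), so the CUG960 level was 0.751 times that of controls (95% interval 0.676 to 0.835, log2 fold change -0.41 ± 0.07 SE, edgeR adjusted p = 0.0063). Leaving out any 1 mouse kept the call, with adjusted p between 0.0084 and 0.03.

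**Figure D2:**
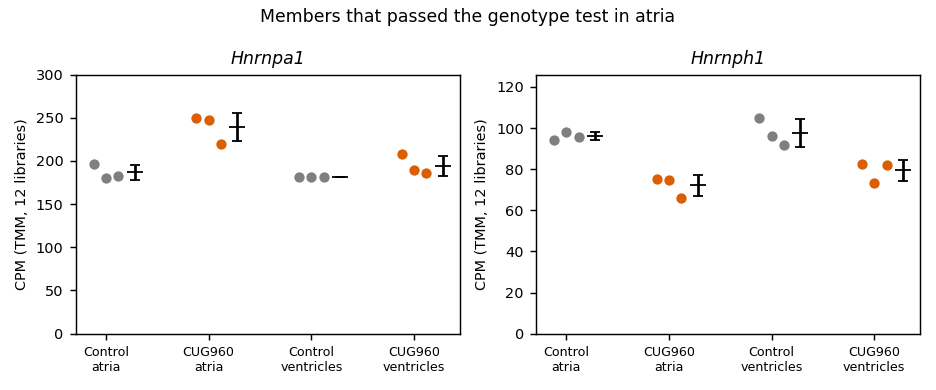
Points are single libraries and bars are means with SD (n = 3 mice per group); the y axis is CPM and starts at 0. For Hnrnpa1 the CUG960 atria (220 to 250 CPM) lie above the control atria (180 to 197 CPM), and for Hnrnph1 they lie below (66.2 to 75.3 against 94.4 to 98.1 CPM).

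Relatives of these genes did not pass. Hnrnph2 and Hnrnpf, which code for proteins with the same type of G-tract binding domain as hnRNP H, had log2 fold changes of 0.06 and 0.04 in atria, and Hnrnph3 had -0.21 (edgeR adjusted p = 0.15). Hnrnpa2b1 was at 405, 368 and 395 CPM in control atria and 415, 425 and 394 CPM in CUG960 atria, which overlap, and its log2 fold change was 0.08 (95% interval -0.06 to 0.23). Hnrnpa3 had -0.17 (edgeR adjusted p = 0.12). In hnRNP A/B and D as a group, 1 of 7 members passed and the median log2 fold change was 0.08, and in hnRNP F/H 1 of 4 passed with a median of -0.08. None of the 6 members in hnRNP C, K, L, M and R and none of the 3 in hnRNP U passed, with medians of 0.01 and -0.02. For all genes tested the median was -0.01.

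No SR gene passed in atria. The 8 classical SR genes had log2 fold changes from -0.17 to 0.14 with a median of -0.01, and the lowest adjusted p among all 17 SR and SR-like genes was 0.14. Srsf1, which codes for the prototype SR protein SF2/ASF, was at 80.1, 74.9 and 78.7 CPM in control atria and 72.0, 72.6 and 64.6 CPM in CUG960 atria. Those values do not overlap, yet the log2 fold change of -0.16 ± 0.07 (SE) had an edgeR adjusted p of 0.14. In all, 9 of 37 members had atrial groups that did not overlap, against 35.7% of all genes.

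The intervals show which sizes of difference the libraries could resolve. Of the 35 members with a mean of at least 1 CPM, 34 had a 95% interval inside 1.5-fold in either direction in atria, and Srrm4 was the exception (0.666 to 1.16). For Srrm3 and Srsf12, at under 1 CPM, the intervals ran from 0.38 to 1.33 and from 0.478 to 2.75. Genotype differences inside these ranges were not resolved at this depth.

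In ventricles none of 35 members passed, against 9.94% of all 16909 genes (5.73% higher and 4.2% lower in CUG960, and 4.75% with a fold change of at least 1.5). At an unadjusted p under 0.05 there were 6 members, or 17.1%, against 25.7% of all genes. Srrm3, Srsf12 and Hnrnpa1l2-ps were not tested because of low counts. All 35 intervals lay inside 1.5-fold. The median log2 fold change was -0.05 over members, and 0.06 with library totals alone, where the median of all genes moved from -0.01 to 0.10. The part of the lower mitochondrial share in this was not tested. DESeq2 called 1 member, Hnrnph1.

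Hnrnph1 was closest to the threshold, in the same direction as in atria. Its level was 105, 96.2 and 91.8 CPM in control ventricles (V327, V333, V334) and 82.6, 73.4 and 82.2 CPM in CUG960 ventricles (V119, V120, V123), which do not overlap. The log2 fold change was -0.30 ± 0.08 (SE), or 0.814 times control (95% interval 0.716 to 0.925), with an edgeR adjusted p of 0.051. It passed in 4 of 15 alternatives, among them DESeq2 (adjusted p = 0.02) and a single edgeR fit over all 12 libraries (adjusted p = 0.017). It passed in none of the 6 fits without a mouse (adjusted p 0.055 to 0.2), and with library totals alone its log2 fold change was -0.19 (adjusted p = 0.15).

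Hnrnpa1 did not pass in ventricles. Its level there was 181, 181 and 181 CPM in controls and 208, 189 and 186 CPM in CUG960 mice. These do not overlap, but the log2 fold change was 0.10 ± 0.07 (SE, edgeR adjusted p = 0.41). The difference between chambers was tested as an interaction of chamber and genotype, and for Hnrnpa1 it was -0.25 on the log2 scale (95% interval -0.46 to -0.05, edgeR adjusted p = 0.29, ventricular minus atrial change). None of 37 members passed the interaction test in edgeR or DESeq2, against 1.38% of all genes in edgeR, and Hnrnpa1 was the single member with an unadjusted p under 0.05. A difference in genotype effect between chambers was therefore not shown for any member. For Hnrnph1 the interaction was 0.11 (95% interval -0.11 to 0.34).

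Among the SR genes, Srsf1 was at 76.8, 80.2 and 80.2 CPM in control ventricles and 72.3, 63.6 and 65.5 CPM in CUG960 ventricles (log2 fold change -0.23 ± 0.07 SE, edgeR adjusted p = 0.08). Srsf5 had 67.2, 66 and 55.0 CPM in control ventricles and 75.0, 70.4 and 82.2 CPM in CUG960 ventricles (log2 fold change 0.28 ± 0.10 SE, edgeR adjusted p = 0.11). Srsf10, a splicing repressor once dephosphorylated, had -0.22 ± 0.08 (SE, edgeR adjusted p = 0.1). Both sets of ventricles were separate for each of these genes, but none passed after adjustment. With all 12 libraries in a single fit, which shares 1 estimate of spread, Srsf1, Hnrnpab and Hnrnph1 passed, all lower in CUG960 ventricles.

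Ventricular groups did not overlap for 9 of 35 members, against 31.2% of all genes. For 6 members the groups were separate in both chambers with the same direction: Hnrnpa1 was higher in CUG960 mice, and Hnrnph1, Hnrnpa3, Hnrnpab, Hnrnpm and Srsf1 were lower. This is 17.1% of the 35 members tested in both chambers, close to the 15.2% of all 16432 genes so tested, and both chambers came from the same 6 mice. Hnrnpm overlaps March2 on the same strand in the annotation, so its counts are uncertain.

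**Figure D3:**
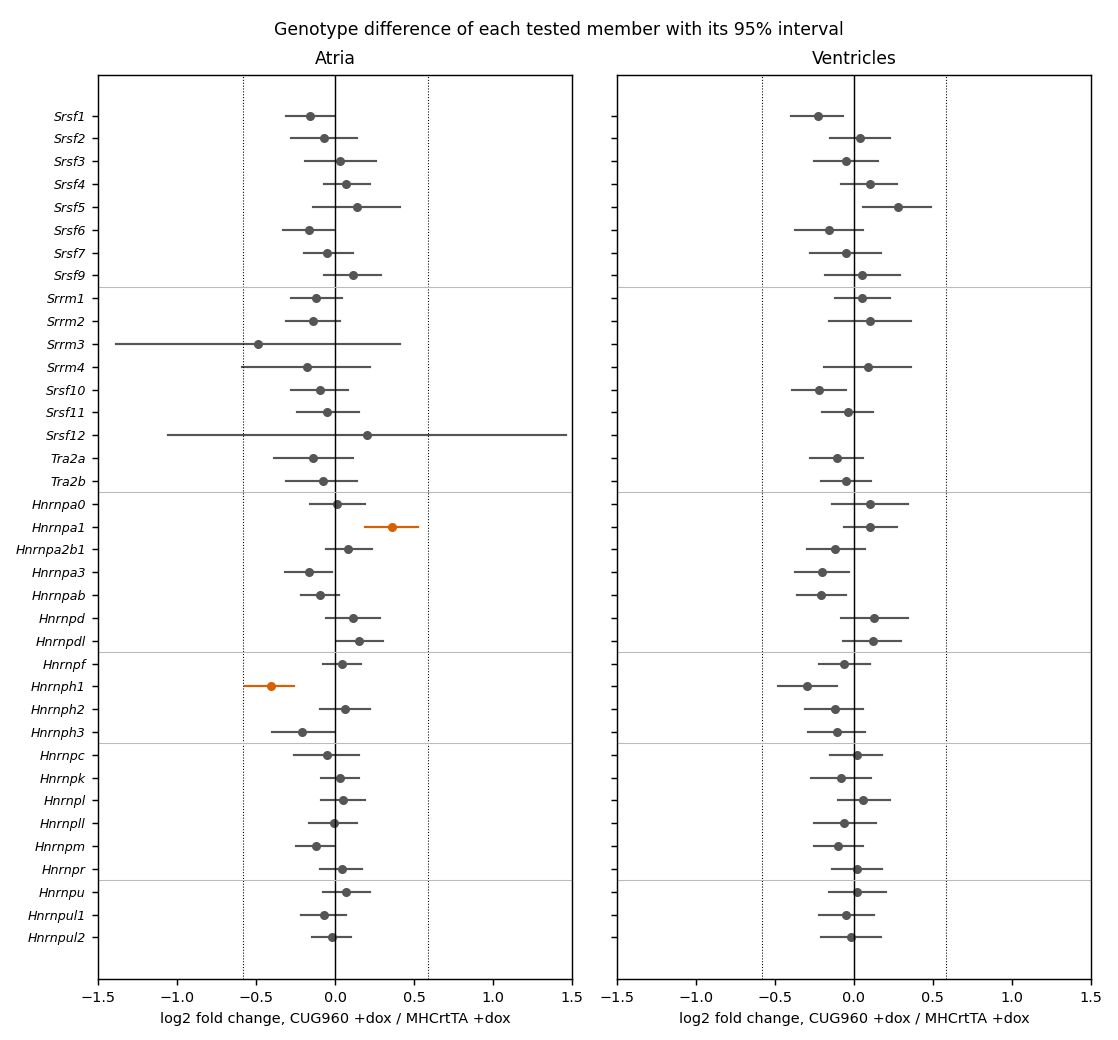
Each point is the log2 fold change of CUG960 +dox over MHCrtTA +dox for a tested member with its 95% interval (edgeR, 3 mice per genotype), in atria on the left and ventricles on the right; dotted lines mark 1.5-fold and colour marks an adjusted p under 0.05. Hnrnpa1 (0.36) and Hnrnph1 (-0.41) in atria are the coloured points, and no ventricular point is coloured.

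Markers of other cells moved with genotype in these same libraries. Endothelial markers (5 genes, all above 1 CPM in all 12 libraries and none at 0) summed to 586, 600 and 504 CPM in control atria and 390, 436 and 399 CPM in CUG960 atria, with Pecam1 the most abundant in atria, and 3 of 5 fell. In ventricles they summed to 781, 629 and 716 CPM in controls and 533, 501 and 544 CPM in CUG960 mice, with Cdh5 or Kdr the most abundant, and 2 of 5 fell. Smooth muscle and pericyte markers, led by Rgs5, summed to 805, 754 and 806 CPM in control ventricles and 613, 642 and 602 CPM in CUG960 ventricles, and 4 of 5 fell, while in atria, led by Acta2, 1 rose and 1 fell. Fibroblast markers, led by Dcn, had 2 of 6 lower in CUG960 atria and 0 of 6 changed in ventricles. Myh6, the αMHC gene and the most abundant cardiomyocyte marker, was at 25900, 25300 and 25300 CPM in control atria and 30400, 29500 and 29400 CPM in CUG960 atria. Of 7 cardiomyocyte markers, 3 passed in atria (2 up and 1 down) and 1 in ventricles (down). No leukocyte or proliferation marker of 6 each passed by genotype in either chamber. Dbh, a marker of noradrenergic neurons, fell in both chambers. In bulk tissue, fewer cells of a type and less RNA per cell cannot be told apart, and the part of these markers in the Hnrnph1 and Hnrnpa1 differences was not tested.

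The partners of SR proteins and hnRNPs were tested in the same fits. Of 18 SR kinase, phosphatase and import genes, 1 passed in atria (Ppp1cc, a catalytic subunit of protein phosphatase 1, 150 ± 2.38 against 182 ± 10.6 CPM, log2 fold change 0.29) and 1 in ventricles (Dyrk1b, a dual-specificity kinase, 16.9 ± 0.337 against 25.8 ± 5.58 CPM, log2 fold change 0.61, edgeR adjusted p = 0.025). Of 26 RS-domain and SR-related genes, 1 passed in atria (Srek1, log2 fold change -0.25) and 0 in ventricles. Among 46 core spliceosome genes, 2 passed in atria (Sf1, the branch point binding protein, at -0.32, and Prpf19 at 0.22) and 0 in ventricles. In atria these 3 lists were called at 5.56%, 3.85% and 4.35%, against 14.6% of all genes. In ventricles they were called at 5.56%, 0% and 0%, against 9.94% of all genes. Median log2 fold changes of the lists lay between -0.04 and 0.03 in both chambers.

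The list of other hnRNP-class and splicing regulator genes held 44 genes, of which 41 were tested in each chamber, and these were called at about the share of all genes, with 6 in atria (14.6%, 3 up and 3 down) and 4 in ventricles (9.76%, 2 up and 2 down). Khdrbs3, which codes for the STAR-family splicing factor SLM2, rose in both chambers, from 24.1 ± 0.876 to 37.0 ± 0.631 CPM in atria (log2 fold change 0.62 ± 0.06 SE, edgeR adjusted p = 0.00059) and from 37.1 ± 3.17 to 47.0 ± 1.88 CPM in ventricles (0.34 ± 0.08 SE, adjusted p = 0.034), each mean with its SD over 3 mice. Esrp2, an epithelial splicing regulator, passed in ventricles at a very low level, 0.248 ± 0.0841 against 0.0836 ± 0.0118 CPM (log2 fold change -1.56, edgeR adjusted p = 0.044). In atria the cold-inducible Cirbp (0.54) and the FET protein gene Taf15 (0.49) rose, and Ptbp1 (-0.30) and Ptbp3 (-0.35), which code for polypyrimidine tract binding proteins, fell together with Dazap1 (-0.31). No gene of any of these 4 lists passed the interaction test.

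The 2 chambers were then compared within each genotype, which tells how these regulators are distributed in a heart without the repeat RNA. In control mice 16 of 36 members tested differed between ventricles and atria, 44.4% against 55.7% of all 17451 genes, with 6 higher and 10 lower in ventricles (27.5% and 28.3% of all genes). With library totals alone, in place of TMM, 2 were higher and 33 lower, because the median of all genes then moved from -0.03 to -0.49 on the log2 scale. The median of the members moved with it, from -0.05 to -0.50, so the sign of a small difference does not hold under both scalings. These counts include Srrm3, which had 18, 26 and 17 counts in control atria and 0, 5 and 3 in control ventricles and so passed the filter on low counts through its atria alone. Without it 15 of 35 members passed, 6 higher and 9 lower. Of those, Srrm4 and Hnrnpa2b1 differed by at least 1.5-fold, against 34.9% of all genes. Leaving out each mouse in turn kept the calls of 6 members in every fit, which were Srrm4, Hnrnpa2b1, Hnrnph3, Hnrnpab, Srrm2 and Srrm1.

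Srrm4 codes for an activator of neuronal microexons and is known from the nervous system. It lies on chromosome 5 (116439275 to 116591817, minus strand). It was at 6.19, 8.54 and 7.35 CPM in control atria (V327, V333, V334) and 31.0, 23.2 and 30.7 CPM in ventricles of the same mice. CUG960 atria had 5.94, 5.41 and 8.12 CPM and CUG960 ventricles 27.0, 32.6 and 30.6 CPM (V119, V120, V123). All 6 ventricles were well above all 6 atria, by 3.86-fold in controls (95% interval 3.03 to 4.9, edgeR adjusted p = 1.4e-05) and 4.68-fold in CUG960 mice (3.67 to 5.95, adjusted p = 3.8e-06), and the direction held with library totals alone (log2 fold changes 1.49 and 1.83).

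Neuronal markers were read in the same libraries. Tubb3, Snap25, Prph and Th were under 1 CPM in all 12 libraries, and Dbh was at 3.05 to 4.84 CPM in control atria and 3.07 to 4.58 CPM in control ventricles, and did not pass between control chambers (Dbh log2 fold change -0.11, edgeR adjusted p = 0.67). The part of neuronal RNA in the Srrm4 level was not tested. Hspb8, a small heat shock protein gene that lies next to Srrm4 on the same strand, was at 345 to 435 CPM in atria and 623 to 793 CPM in ventricles, also higher in ventricles, and whether any of its reads were counted to Srrm4 was not tested.

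Hnrnpa2b1 (chromosome 6, 51460932 to 51469894, minus strand) was, after Srrm4, the member with the largest difference in controls among those with a mean of at least 1 CPM under TMM scaling. Control ventricles had 588, 660 and 623 CPM against 405, 368 and 395 CPM in atria of the same mice, 1.61-fold higher (95% interval 1.43 to 1.81, edgeR adjusted p = 9.8e-05). In CUG960 mice the ventricles had 592, 538 and 592 CPM against 415, 425 and 394 CPM (1.41-fold, 1.25 to 1.59, adjusted p = 0.00051). Both remained positive with library totals alone, at 0.23 and 0.10 on the log2 scale, and the latter then had an adjusted p of 0.26.

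Hnrnph3 codes for a shorter hnRNP H relative. It was at 27.9, 25.0 and 23.8 CPM in control atria and 34.6, 37.2 and 34.6 CPM in control ventricles, and at 24, 22 and 20.5 CPM in CUG960 atria and 32.6, 30.7 and 35.1 CPM in CUG960 ventricles. Ventricles were above atria in both genotypes (log2 fold changes 0.48 and 0.58, edgeR adjusted p 0.0011 and 0.00043). With library totals alone these became 0.02 and 0.18, and neither passed.

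SR genes that differed between chambers were, Srrm4 aside, lower in ventricles with TMM scaling. Srrm3 aside, 6 of 15 SR and SR-like genes tested in controls were lower, beside 28.3% of all genes, and 1, Srrm4, was higher. The median log2 fold change of these 15 was -0.17 against -0.03 for all genes. Srrm2, a large scaffold protein of nuclear speckles, was at 206, 232 and 210 CPM in control atria and 154, 116 and 161 CPM in control ventricles (log2 fold change -0.58 ± 0.12 SE, edgeR adjusted p = 0.0034), and at 185, 195 and 209 against 154, 158 and 150 CPM in CUG960 mice (-0.34 ± 0.07 SE, adjusted p = 0.0031). Control ventricle V333 was the lowest of all 12 libraries for Srrm2, and without this mouse the control difference was -0.40 (edgeR adjusted p = 0.0054).

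Srsf5, of the classical SR genes, was at 107, 84.1 and 74.8 CPM in control atria and 67.2, 66 and 55.0 CPM in control ventricles (log2 fold change -0.49 ± 0.14 SE, edgeR adjusted p = 0.014). In CUG960 mice it was at 100, 95.7 and 96.9 CPM against 75.0, 70.4 and 82.2 CPM (-0.35 ± 0.07 SE, adjusted p = 0.0033). Atria were above ventricles in both, and the control call was lost without V327 (adjusted p = 0.05). Srsf6, Srsf11, Srrm1 and Tra2a were lower in control ventricles by 0.29 to 0.36 on the log2 scale. The edgeR call of Srsf6 was lost without V333 (adjusted p = 0.092), that of Srsf11 without V334 (0.056), and that of Tra2a without V327 (0.13) or V334 (0.084).

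**Figure D4:**
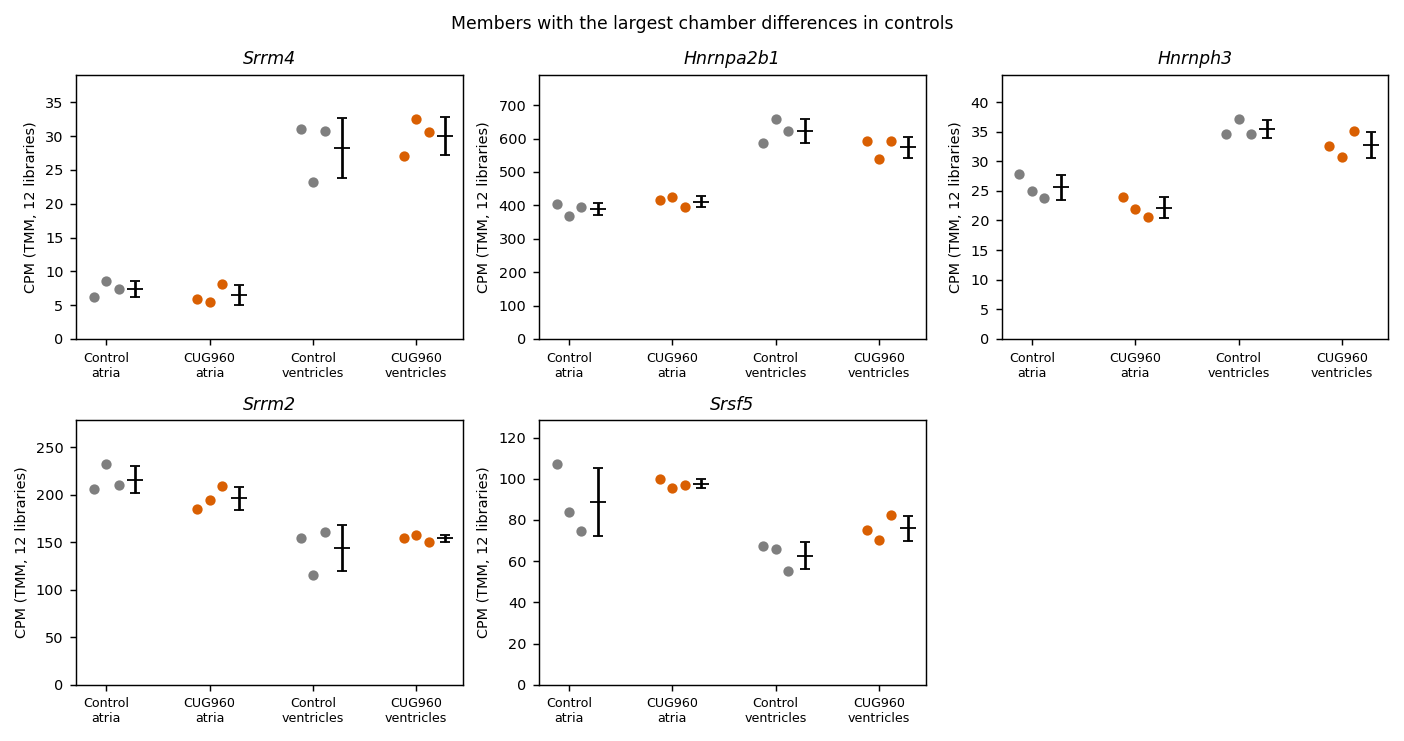
Points are single libraries and bars are means with SD (n = 3 mice per group) for the 5 members with the largest chamber differences in controls among those with a mean of at least 1 CPM; y axes are CPM from 0. Srrm4, Hnrnpa2b1 and Hnrnph3 are higher in ventricles and Srrm2 and Srsf5 lower with TMM scaling, and Hnrnph3 is near even in controls (0.02 on the log2 scale) with library totals alone.

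Of 20 hnRNP genes tested in controls, 5 were higher and 3 lower in ventricles with TMM scaling, beside 27.5% and 28.3% of all genes, and their median log2 fold change was -0.01. Hnrnpab (0.29), Hnrnpa3 (0.24) and Hnrnpf (0.17) were higher with TMM, yet with library totals alone they were lower (-0.16, -0.22 and -0.29). Hnrnpf passed in none of the 3 fits without a mouse (edgeR adjusted p 0.089 to 0.15), and its call was also lost with the mouse as a replicate block. Hnrnpa3 was lost without V333 (edgeR adjusted p = 0.081) or V334 (0.096). Hnrnph2, Hnrnpul1 and Hnrnpll were lower by 0.26 to 0.31 on the log2 scale under TMM and lower still with totals alone. Without V327 none of these 3 passed (edgeR adjusted p 0.075 to 0.11), and Hnrnpul1 was also lost without V333. Hnrnph1 and Hnrnpa1, which differed by genotype in atria, did not pass between chambers in controls (0.03 and -0.04). Hnrnpk and Hnrnpf in ventricles were at 218, 236 and 232 CPM and at 160, 162 and 158 CPM in controls.

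In CUG960 mice 17 of 35 members differed between chambers, 48.6% against 54.2% of all 17559 genes, with 6 higher and 11 lower in ventricles (27.5% and 26.7% of all genes). The count fell to 10 without V119 and to 9 without V120, and 8 of the 17 passed in every fit that left out a mouse (Srrm4, Hnrnpa2b1, Hnrnph3, Hnrnph2, Hnrnpll, Srrm2, Srsf5 and Srsf6). With the mouse as a replicate block the calls of Hnrnpc and Hnrnpa3 were lost. With library totals alone 1 was higher and 30 lower, and with upper quartile scaling 3 were higher and 13 lower. Only Srrm4 reached 1.5-fold here, against 33.6% of all genes. Hnrnpa1 was lower in CUG960 ventricles than in CUG960 atria (log2 fold change -0.29 ± 0.08 SE, edgeR adjusted p = 0.013, and 0.1 without V120).

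The 2 genotypes were different mice, while both chambers of a genotype came from the same mice. In both genotypes 13 members passed, all in the same direction. Among all genes, 7737 of the 7759 that passed in both had the same direction. The 13 members were 76.5% of those called in CUG960 mice, against 81.5% of all genes. In controls the 13 were 81.2% of the 16 members called, against 79.8% of all genes. With Srrm3 left out they were 13 of 15, which has no like value over all genes. Srrm3 was not tested between CUG960 chambers, so it could not be shared. Srrm4, Hnrnpa2b1, Hnrnph3, Hnrnpab and Hnrnpa3 were higher in ventricles of both genotypes with TMM scaling, although with library totals alone Hnrnpab and Hnrnpa3 were lower in both. Srsf5, Srsf6, Srsf11, Srrm2, Tra2a, Hnrnph2, Hnrnpll and Hnrnpul1 were lower in ventricles of both under either scaling. With the mouse as a block Hnrnpa3 no longer passed in CUG960 mice (edgeR adjusted p = 0.052). Of the 13 members, 4 passed in both genotypes in every fit that left out a mouse: Srrm4, Hnrnpa2b1, Hnrnph3 and Srrm2. Hnrnpab and Hnrnpa3 passed in none of the 3 such fits of CUG960 mice.

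**Figure D5:**
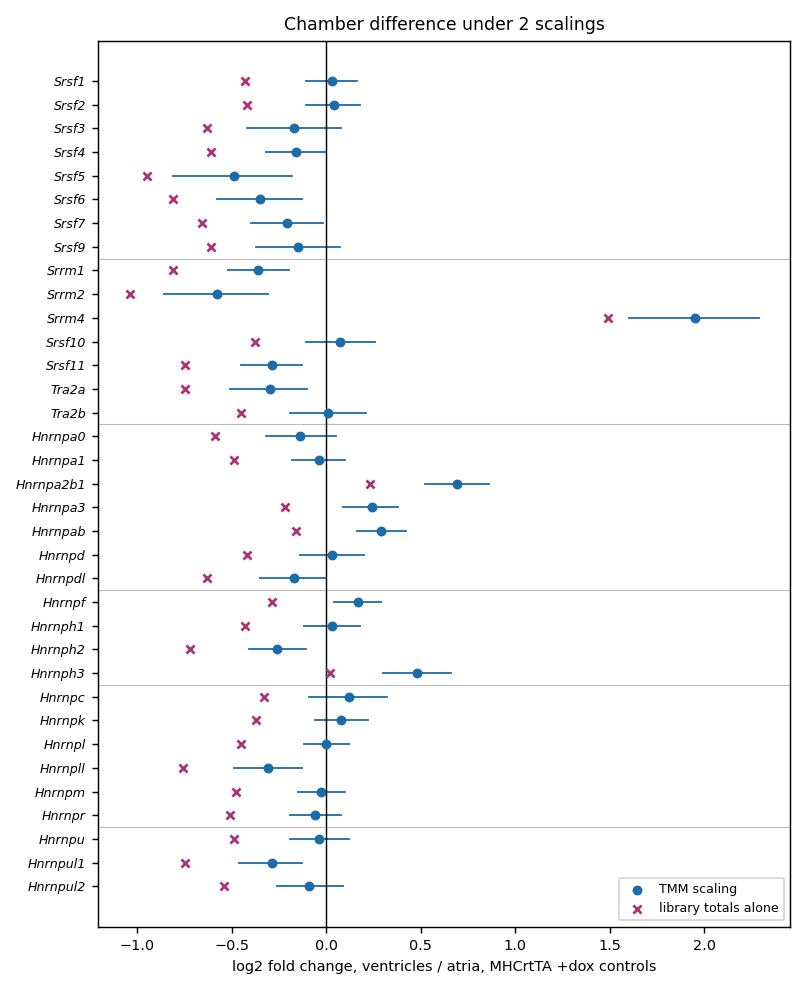
Circles with 95% intervals show the log2 fold change of ventricles over atria in MHCrtTA +dox controls (3 mice, both chambers of each) with TMM scaling, and crosses the same with library totals alone; Srrm3, at under 1 CPM, is left out. All crosses lie to the left of their circles, and those of Srrm4 (1.49), Hnrnpa2b1 (0.23) and Hnrnph3 (0.02) are the ones above 0.

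Cell markers differed between chambers as well. In controls 5 of 6 fibroblast markers and 5 of 6 leukocyte markers were lower in ventricles, while 4 of 6 proliferation markers, led by Mki67, were higher. All 5 endothelial markers (3 up and 2 down) and all 5 smooth muscle and pericyte markers (4 up and 1 down) differed. Fibroblast markers summed to 1680, 1970 and 2030 CPM in control atria and 1080, 1100 and 1240 CPM in control ventricles, with Dcn the most abundant and none at 0. Of 7 cardiomyocyte markers, 4 were higher in control ventricles and 0 lower. Their summed level was 40800 to 42100 CPM in control atria and 52800 to 56000 CPM in control ventricles. The part of all these markers in the lower SR levels of ventricles was not tested.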

How the data were processed

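The authors made stranded poly(A) libraries, aligned paired 150-base reads to mm10 (GRCm38) and deposited RSEM 1.3.1 estimated counts per gene on an Ensembl annotation (tools per the labels and the study's methods). The expected counts were whole numbers without scaling or filter. Whether counting used strand is not given in the sources used here, so members that overlap a gene on the other strand are uncertain to that extent. The protein-coding partners concern Srrm2, Hnrnpk, Hnrnpu, Hnrnpab, Hnrnph3 and Srsf2, and noncoding ones concern others, such as Hnrnpf, Tra2a, Srsf4 and Srrm4.

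Counts were tested with edgeR 4.0.16 (filterByExpr, TMM, quasi-likelihood; R 4.3.3), with Benjamini-Hochberg adjustment over all genes and calls at 0.05. Genotype was fitted within each chamber, chamber within each genotype, and the interaction over 12 libraries. DESeq2 1.42.0, other scalings and filters, and fits without each mouse were alternatives. The fits were tested on simulated data. With 3 against 3, an exact permutation test cannot go below p = 0.1, so none was used. Atria and ventricles of a mouse are paired by the label. Deviations from group means correlated at 0.03 to 0.135 within a mouse and at -0.141 to 0.054 between mice. Replicate libraries differed by more than sampling noise.

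Members and gene lists were chosen with earlier results of these data known. Named with values were members past the threshold for genotype or interaction, the 6 highest per kb, the 5 largest chamber differences in controls (at least 1 CPM), untested members, and listed partner genes past the threshold and 1.5-fold (at most 4 per list and chamber). Other genes were named after their values were seen. Coordinates and copies came from GENCODE M21 (all 38 members matched; BLAST+ 2.17.0, at least 95% identity over 150 bases). Some cell type markers are not reported here.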

Additional observations from a re-analysis of the deposited data

How the results depend on the processing

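In atria the count of 2 members changed by genotype held under each scaling, filter, DESeq2 and the 12-library fit, fell to 0 with a 1.5-fold limit, and ranged from 1 to 3 when a mouse was left out (Srsf5 joined without V327). In ventricles the count of 0 became 1 with library totals alone (Srsf5), with DESeq2, without a filter and with at least 10 counts in every library (Hnrnph1 in these 3), and 3 in the 12-library fit, and it was 0 without each mouse. The interaction count was 0 under every alternative, the mouse as a replicate block included. The chamber count of 16 in controls became 35 with library totals alone and 3 with a 1.5-fold limit, and was 11 or 12 without a mouse. Srrm3, near the floor in ventricles, is among the 16 and the 3, and without it these were 15 and 2. The chamber count of 17 in CUG960 mice became 31 with library totals alone and 1 with a 1.5-fold limit. It was 9 to 14 without a mouse (10 without V119, 9 without V120). With the mouse as a replicate block, 15 members passed in each genotype, and the calls of Hnrnpf in controls (adjusted p = 0.079) and of Hnrnpc (0.063) and Hnrnpa3 (0.052) in CUG960 mice were lost. In CUG960 mice 3 were higher and 12 lower without a filter, and 3 and 13 with at least 10 counts in every library.

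Library totals alone reversed 6 chamber differences, by construction of the scaling: in controls Hnrnpab (-0.16), Hnrnpf (-0.29) and Hnrnpa3 (-0.22), and in CUG960 mice Hnrnpab (-0.20), Hnrnpa3 (-0.19) and Hnrnpc (-0.19). Adding pseudogene copies to each member, chosen after seeing the data, moved the CUG960 chamber count to 16 and no other. By longest transcript, Hnrnpa1, Hnrnpf, Hnrnpab, Hnrnpa3 and Hnrnpk ranked 3, 4, 5, 6 and 2. With 3 mice per group, atrial genotype differences of Srrm3 and Srsf12 inside their intervals could not be resolved at their counts. Neither gene was tested by genotype in ventricles.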
